A study of Mus musculus with 4 samples.

Results

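Expression of 10 genes of monocytes and macrophages was examined in pro-B cells, B-lineage precursors that rearrange the immunoglobulin heavy-chain locus. The genes encode lysozyme (Lyz2), receptors for colony-stimulating factors (Csf3r, Csf2rb), Fc receptors for immunoglobulin (Fcgr1, Fcgr2b, Fcgr3, Fcer1g), the lipopolysaccharide co-receptor CD14 (Cd14), a scavenger receptor (Marco) and sialoadhesin (Siglec1). They were chosen by name, and every probe set whose only listed gene symbol was one of them was taken. This gave 10 probe sets, 1 per gene, among the 34760 probe sets of the table. The cells came from the bone marrow of wild-type mice on the C57BL/6 background and were sorted as B220+ and c-Kit+ by the labels, or B220low and c-Kit+ by the study's methods. No marker that removes myeloid cells is named for this gate, and the methods state that sorted fractions were checked for purity by flow cytometry. RNA was hybridized to 4 Affymetrix Mouse Gene 1.0 ST arrays, replicates 1 to 4, which form the only group analysed here. The labels give no age, nor do they tie the replicates to separate mice.

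Monocytes and macrophages take up particles and sense microbes through surface receptors. Activating Fc receptors bind the constant part of antibodies and signal through the immunoreceptor tyrosine-based activation motif of a shared chain, the product of Fcer1g. The Fcgr2b receptor carries an inhibitory motif instead, and it is the classical IgG receptor of B cells themselves. The G-CSF receptor, encoded by Csf3r, drives granulocyte production, and the product of Csf2rb is the signalling chain shared by the receptors for GM-CSF, IL-3 and IL-5. MARCO and sialoadhesin mark macrophages of the splenic marginal zone, the compartment that the study of NKX2-3 is concerned with.

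Values are log2 intensities, on which a difference of 1 is a doubling. A probe set was called above background when it passed the background line on each of the 4 arrays. The line was the 95th percentile of an array's 1246 probe sets for olfactory, vomeronasal or taste receptors, genes that sensory cells use, and it was 6.53 for replicate 1, 6.62 for replicate 2, 6.54 for replicate 3 and 6.59 for replicate 4. Array medians were 7.31 to 7.35, and pairs of arrays had a Pearson's r of 0.986 to 0.989 over the probe sets, which are not independent replicates. Replicate 3 stood apart in Xist, the X-inactivation transcript, at 5.48 against 13.04 to 13.17 on the other arrays. Of 13 early B-cell markers with a probe set, 12 were above background, where 63.5% of all probe sets with 1 symbol were. Granulocyte markers (13 of 13), other monocyte and macrophage markers (11 of 11) and erythroid markers (7 of 7) passed too. The count therefore does not check the labelled cell type. Kit, the receptor of the gate, had a log2 value of 10.72 ± 0.18 and Pax5, the B-lineage commitment factor, 10.80 ± 0.55 (SD, n = 4). Rag2, a recombinase subunit, was above the line on 3 arrays. Since bulk RNA was measured, fewer cells of a type and less RNA per cell cannot be told apart in any value given here.

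The starts of 4 members are shown first. Csf3r and Fcgr1 had the widest spread over the arrays, and the products of Fcgr1 and Fcgr3 each pair with that of Fcer1g, in separate receptors. Each sequence holds 250 bases before the start and 50 bases from it on, 5′ to 3′ on the gene's strand, from RefSeq on GRCm38.p6. For Fcgr3, which has more than 1 start in that table, the one listed first was taken. Capitals mark matches on either strand to GAGGAA, the core of a box bound by the transcription factor PU.1, or to TTGCNNAA, a form of the C/EBP site.
Csf3r, chr4:126024409-126024708, plus strand: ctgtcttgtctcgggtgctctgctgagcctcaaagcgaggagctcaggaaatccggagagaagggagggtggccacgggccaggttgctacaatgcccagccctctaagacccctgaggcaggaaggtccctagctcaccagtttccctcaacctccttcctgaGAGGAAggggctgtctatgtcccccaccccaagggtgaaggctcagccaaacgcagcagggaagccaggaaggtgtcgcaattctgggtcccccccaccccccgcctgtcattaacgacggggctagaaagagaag
Fcgr1, chr3:96293920-96294219, minus strand: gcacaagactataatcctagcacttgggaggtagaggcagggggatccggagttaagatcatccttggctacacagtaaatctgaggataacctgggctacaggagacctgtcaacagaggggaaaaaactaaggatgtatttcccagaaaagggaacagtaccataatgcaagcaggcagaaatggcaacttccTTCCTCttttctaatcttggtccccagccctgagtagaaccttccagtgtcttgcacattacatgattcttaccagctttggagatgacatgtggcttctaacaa
Fcgr3, chr1:171059354-171059653, minus strand: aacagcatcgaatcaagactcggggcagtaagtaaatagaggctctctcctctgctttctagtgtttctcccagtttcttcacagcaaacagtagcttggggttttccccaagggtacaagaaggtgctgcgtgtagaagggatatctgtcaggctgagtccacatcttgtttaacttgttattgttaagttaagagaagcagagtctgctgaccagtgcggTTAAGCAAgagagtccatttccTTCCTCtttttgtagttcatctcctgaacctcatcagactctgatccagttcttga
Fcer1g, chr1:171234300-171234599, minus strand: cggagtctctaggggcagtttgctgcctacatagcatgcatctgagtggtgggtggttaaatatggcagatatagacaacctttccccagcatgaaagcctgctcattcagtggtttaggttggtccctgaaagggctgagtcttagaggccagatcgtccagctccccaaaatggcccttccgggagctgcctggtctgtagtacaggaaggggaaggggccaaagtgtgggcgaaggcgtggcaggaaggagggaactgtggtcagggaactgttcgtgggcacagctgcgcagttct
GAGGAA was found in 4 of the 7 member promoters that were searched (Csf3r, Fcgr1, Fcgr3 and Marco) and in 28.3% of 27025 promoters of the same length. TTGCNNAA was found in 1 of the 7, that of Fcgr3, and in 10.8% of all promoters. In Fcgr1 the match begins at position -55 and in Csf3r at -86, counted from the start; in Fcgr3 the GAGGAA match, on the reverse strand, begins at -6 and the TTGCNNAA match at -28, with no overlap. A match of letters is a description and was not tested as a binding site.

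Of the 10 members, 9 were above background, where 60.0% of all probe sets and 63.5% of those with 1 symbol were. The share of 63.5% is also the one to set beside each count of list genes above background given below. With the stricter line at the 99th percentile 8 members passed, against 48.2% of all probe sets. By limma's one-sided test, which called 60.2% of all probe sets, 9 members passed. Marco missed the main rule on 1 array, and Cd14 did not hold at the stricter line. The other 8 were at least 1.05 above the main line on every array. Levels of different probe sets are not comparable with each other, so no order of the members by level is given.

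**Figure D1:**
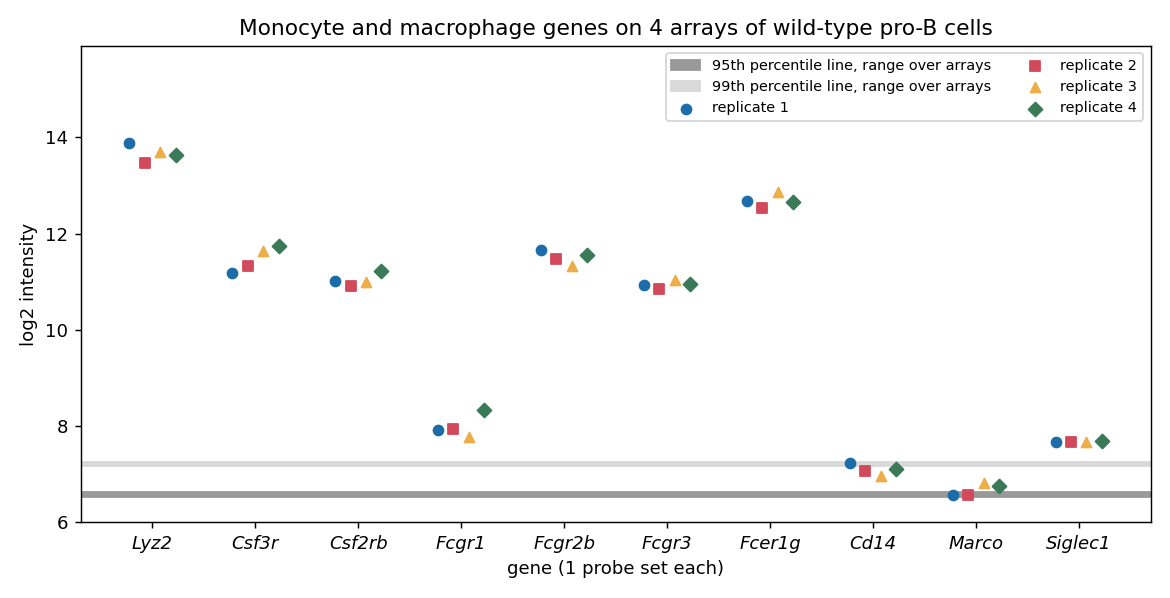
Log2 intensity (vertical axis) of the 10 members (horizontal axis) on the 4 arrays of wild-type pro-B cells, with 1 point per array; the dark and light bands span the 95th and 99th percentile lines of the silent receptor genes over the arrays. Marco lies at or just above the 95th percentile line, Cd14 near the 99th, and the 4 points of Siglec1 coincide at 7.68.

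Lysozyme M, the bacteriolytic enzyme of phagocytes encoded by Lyz2 (probe set 10372648), had log2 values of 13.87, 13.47, 13.69 and 13.64 on the arrays of replicates 1 to 4. Replicate 1 was highest and replicate 2 lowest, a difference of 1.32-fold. Its mean was 13.67 ± 0.16 (SD, n = 4), which lay 7.10 ± 0.09 (SE) above the background line (adjusted p = 2.87e-09 in limma's one-sided test over all probe sets). Lyz1 lies next to Lyz2 on chromosome 10, and whether this probe set also binds the RNA of Lyz1 was not tested.

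The colony-stimulating factor receptors were both above background on every array. Csf3r (probe set 10508074) had log2 values of 11.19, 11.32, 11.63 and 11.74 on the arrays of replicates 1 to 4. The first pair of arrays lay below the second pair, and the spread of 1.47-fold from lowest to highest gave an SD of 0.26. Csf2rb (probe set 10425066) had values of 11.02, 10.91, 10.99 and 11.22, with replicate 4 highest and replicate 2 lowest. Its mean of 11.03 ± 0.13 (SD, n = 4) covered a range of 1.25-fold.

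The receptors that pair with these chains, or resemble them, were also detected. All 6 other cytokine receptors of myeloid cells on the list were above background. Csf2ra, the GM-CSF-specific chain that pairs with Csf2rb, had a log2 value of 11.53 ± 0.08 (SD, n = 4). Il3ra, the IL-3-specific chain, was at 8.88 ± 0.02 (SD, n = 4), and Il5ra, the IL-5-specific chain, at 7.28 ± 0.32 (SD, n = 4) with replicate 4 lower by 0.54 than the mean of the others. Csf2rb2, a close copy of Csf2rb that serves the IL-3 receptor in mice, was at 9.70 ± 0.12 (SD, n = 4), and replicates 2 and 4 were its lowest and highest arrays, as for Csf2rb. Whether the probe sets of this pair of genes also bind each other's RNA was not tested. Csf1r, the M-CSF receptor that defines the monocyte and macrophage lineage, was at 11.24 ± 0.09 (SD, n = 4).

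Of 6 ligands, only Csf1, the ligand of the Csf1r product, was above background, at 7.68 ± 0.13 (SD, n = 4). Csf2, Csf3, Il3 and Il5, which encode GM-CSF, G-CSF, IL-3 and IL-5, were not above the line on any array, and Il34 was above it on 3. All 8 genes of cytokine receptor signalling were above background, among them Jak2, the kinase bound to the shared beta chain, at 10.12 ± 0.05, and Stat5b, a transcription factor it activates, at 10.26 ± 0.11 (SD, n = 4 each).

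All 4 Fc receptor genes were above background. Fcer1g (probe set 10360070), the shared signalling chain, had log2 values of 12.68, 12.53, 12.86 and 12.66 on the arrays of replicates 1 to 4. Fcgr3 (probe set 10360040), the low-affinity activating IgG receptor, had values of 10.94, 10.84, 11.04 and 10.96. In both genes replicate 2 was lowest and replicate 3 highest, and both differences were small, at 1.26-fold for Fcer1g and 1.15-fold for Fcgr3.

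Fcgr1 (probe set 10500335), the high-affinity IgG receptor that needs the same chain, had log2 values of 7.92, 7.94, 7.78 and 8.34. Replicate 4 was the highest array and lay 0.46 above the mean of the others, while replicate 3, the highest array of Fcer1g and Fcgr3, was its lowest. The mean of Fcgr1 was 7.99 ± 0.24 (SD, n = 4), or 1.42 ± 0.10 (SE) above the line (adjusted p = 5.43e-06 in limma's one-sided test).

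Fcgr2b (probe set 10360028), the inhibitory receptor, had log2 values of 11.65, 11.47, 11.32 and 11.55, with replicate 1 highest and replicate 3 lowest. Its mean was 11.50 ± 0.14 (SD, n = 4). The early B-cell markers were also higher on the array of replicate 1, by a median of 0.67 relative to the mean of the other arrays, beside 0.20 for Fcgr2b. They were lower on that of replicate 4, with a median shift of -0.56, beside 0.07 for Fcgr2b. How far the RNA of Fcgr2b came from B-lineage cells or from other cells was not tested. Inpp5d, the lipid phosphatase recruited by the inhibitory motif, was at 11.56 ± 0.15 (SD, n = 4), and Syk, the kinase recruited by the activating motif, at 10.87 ± 0.33 (SD, n = 4).

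Fcgr2b, Fcgr3 and Fcer1g lie on chromosome 1 within a run of 11 protein-coding genes that starts with Fcgr2b and ends with Fcer1g. Fcgr4, another activating IgG receptor that uses the Fcer1g chain, lies between Fcgr2b and Fcgr3. It had log2 values of 8.54, 9.35, 8.78 and 8.99, with replicate 2 higher by 0.58 than the mean of the others, the array on which Fcgr3 and Fcer1g were lowest. Fcgr2b and Fcgr3 are close copies in their extracellular parts, and whether their probe sets bind each other's RNA was not tested.

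Of the 7 other Fc receptor genes with a probe set, 5 were above background, beside a share of 63.5% of all probe sets with 1 symbol. The mast cell and basophil chains Fcer1a and Ms4a2, which join the Fcer1g product in the high-affinity IgE receptor, were above the line on 3 arrays each and below it on that of replicate 2, at 6.16 and 6.23. All 8 genes of Fc receptor signalling with a probe set passed, including Tyrobp, an adaptor related to the Fcer1g product, at 12.39 ± 0.22 (SD, n = 4).

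**Figure D2:**
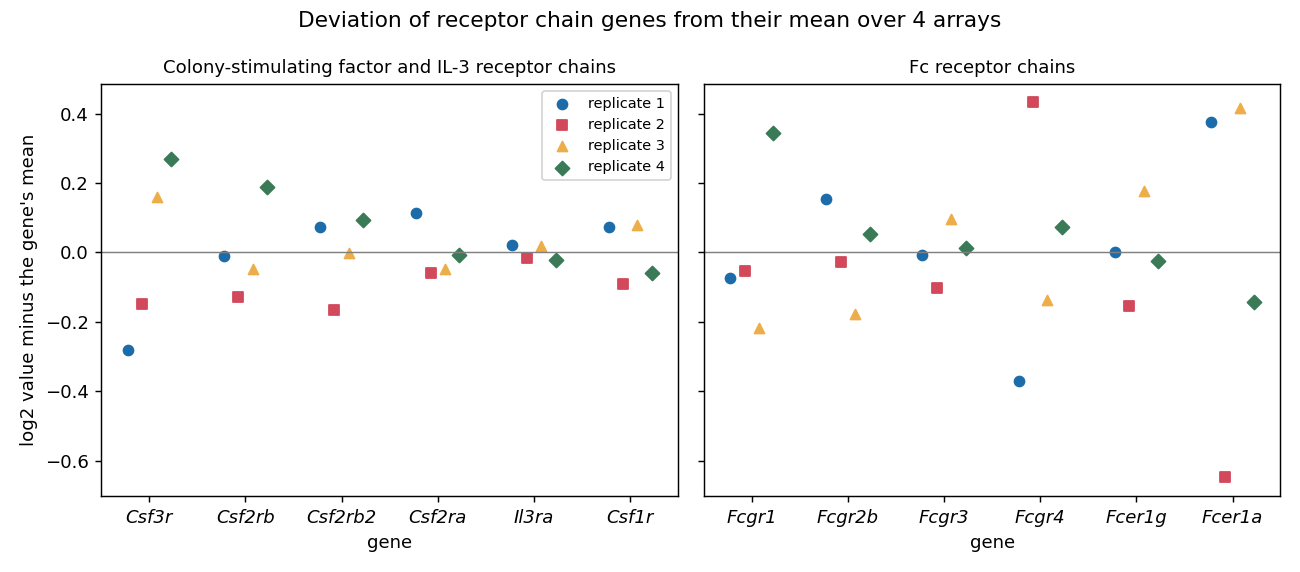
Log2 value of each gene on an array minus the gene's mean over the 4 arrays (vertical axis), for colony-stimulating factor and IL-3 receptor chains (left) and Fc receptor chains (right), with 1 point per replicate array. Csf3r spans 11.19 to 11.74, Fcgr1 is highest on the array of replicate 4, and Fcer1a is lowest on that of replicate 2.

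Cd14 (probe set 10458382) had log2 values of 7.24, 7.07, 6.95 and 7.10 on the arrays of replicates 1 to 4. It was above the 95th percentile line on every array and above the 99th on that of replicate 1 alone. Its mean of 7.09 ± 0.12 (SD, n = 4) lay 0.52 ± 0.07 (SE) above the line (adjusted p = 0.000274 in limma's one-sided test). All 6 other genes of lipopolysaccharide recognition passed, including Tlr4, the signalling receptor, at 7.93 ± 0.15, and Ly96, its co-receptor MD-2, at 10.61 ± 0.12 (SD, n = 4 each).

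Marco (probe set 10357261) had log2 values of 6.57, 6.57, 6.81 and 6.76, of which that of replicate 2 was below the line, with a margin of -0.049. The mean margin over the line was 0.11 ± 0.07 (SE) and did not pass limma's one-sided test (adjusted p = 0.156). The margin was 0.053 without replicate 3 and 0.16 without replicate 2, when Marco was above the line on every array left. Of 8 other scavenger and phagocytic receptors, 6 were above background, beside a share of 63.5% of all probe sets with 1 symbol. Cd163, a marker of tissue macrophages, was above the line on 1 array. Msr1, the class A scavenger receptor related to MARCO, had values of 9.56, 8.37, 9.09 and 8.86, a wider spread (SD 0.50) than any member.

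Siglec1 (probe set 10487823) read 7.68 on all 4 arrays, 1.11 ± 0.06 (SE) above the line (adjusted p = 1.10e-06 in limma's one-sided test). Its SD of 0.0016 was the lowest of all 34760 probe sets, and its highest and lowest array differed by 1.003-fold. Among the 20869 probe sets above background, 4 had a range under 0.01. All 6 other sialic acid-binding lectins were above background with a median SD of 0.32. They included Siglech, a lectin of plasmacytoid dendritic cells, at 8.89 ± 0.33 (SD, n = 4) and Cd22, the B-cell member of the family, at 10.06 ± 0.31 (SD, n = 4).

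No member above background lay more than 0.5 from the mean of the other arrays on any array (0 of 9), where 9.94% of all probe sets above background did on at least 1 array. Past a distance of 0.3 there were 2 members, Csf3r and Fcgr1, against 31.2% of all probe sets. With 9 members these counts do not set them apart from the shares over all probe sets. The median SD was 0.14 over the 9 members, against 0.11 over the single-symbol probe sets above background and 0.13 over all probe sets above background, so the members' spread was not smaller than that of other probe sets. Without replicate 3 the members' median SD was 0.091, with no matching value over all probe sets to set beside it. Each array is 1 sample, so a difference between arrays has no replicate check and no test was made of it. A sign test over 4 arrays cannot give a two-sided p below 0.125.

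On the array of replicate 2, 8 of 9 members were lower than the mean of the other arrays. Their median shift was -0.14, or -0.087 without replicate 4. Of all probe sets above background 50.7% were lower there, and the median shift was -0.0026. Lyz2 was lower by 0.26 there, Fcer1g by 0.20 and Csf3r by 0.20, and Siglec1 was the exception. On the array of replicate 4, 2 of 9 members were lower (median shift 0.018), against 53.0% of all probe sets. On those of replicates 1 and 3 the members divided, with 5 of 9 lower on each, beside 46.5% and 50.0% of all probe sets. The median shift on each of these arrays was that of Siglec1, and its sign changed when single arrays were left out.

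Other markers moved on the same arrays. The 11 other monocyte and macrophage markers with a probe set were all above background, and 11 of 11 were lower on the array of replicate 2 (median shift -0.23). Itgam, a chain of the Mac-1 integrin, was lower there by 0.36, Cd68 by 0.16 and Adgre1, a surface receptor of macrophages, by 0.17. The granulocyte markers, 13 of 13 above background, had median shifts of -0.17, -0.57, 0.26 and 0.29 on the arrays of replicates 1 to 4, beside -0.00062, -0.14, -0.0026 and 0.018 for the members. The log2 of their summed intensity ran from 15.98 to 16.30 over the arrays, that of the other monocyte and macrophage markers from 14.60 to 14.95 and that of the members from 14.73 to 14.96. The early B-cell markers ran from 14.53 to 15.30. On the array of replicate 2 their median shift was -0.25, with 10 of 12 lower. Erythroid and megakaryocyte markers went the other way there. The 7 erythroid genes all had higher values on that array (median shift 0.71, 4 of them by over 0.5) and lower ones on that of replicate 1 (median shift -1.31), and the log2 of their summed intensity ran from 13.41 to 14.44. The 4 genes of megakaryocytes and platelets did so too on the array of replicate 2 (median shift 0.47) and were all lower on that of replicate 4 (-0.58). Plasmacytoid dendritic cell, mast cell and basophil, and T and NK cell markers had median shifts of -0.11, -0.14 and -0.053 on the array of replicate 2, and housekeeping genes one of -0.018. The part of these cell types in the members' values was not tested.

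**Figure D3:**
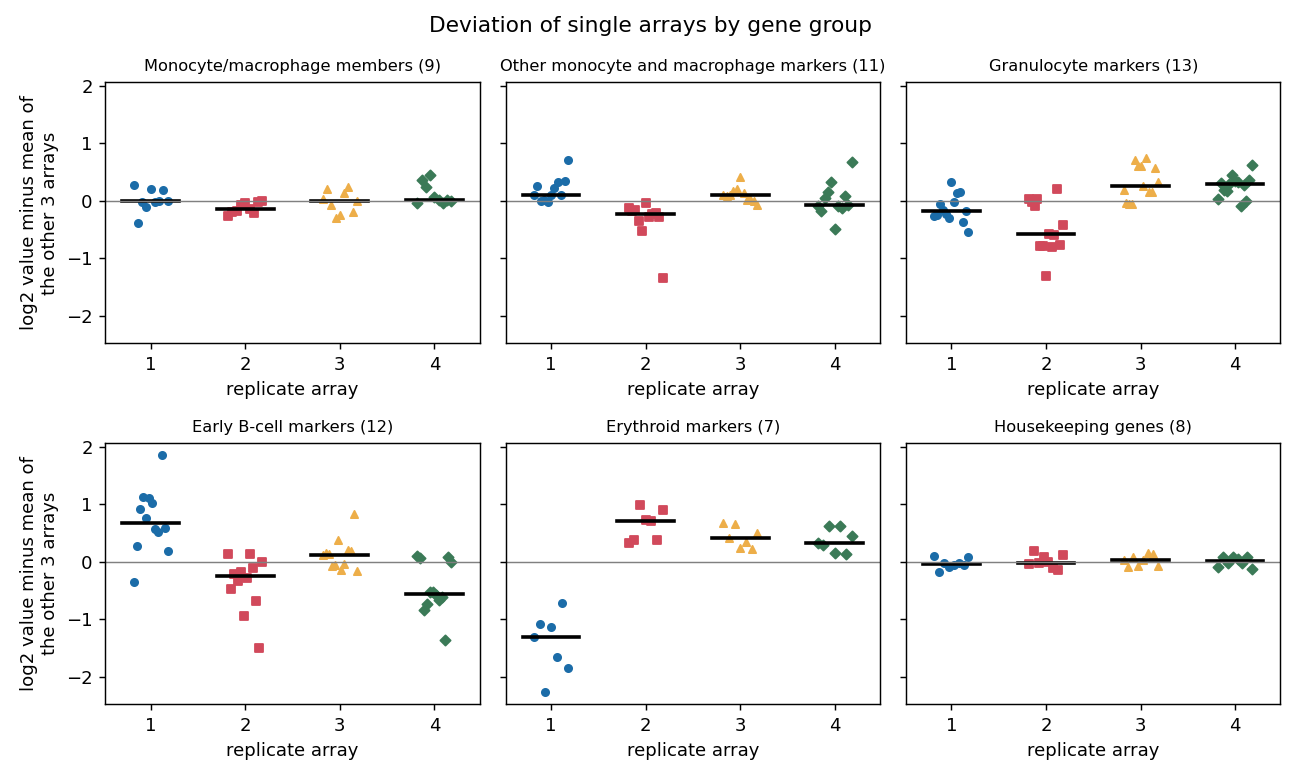
Distance of a gene's log2 value on an array from its mean over the 3 remaining arrays (vertical axis, log2 units) by replicate array (horizontal axis) in 6 gene groups, with the number of genes in brackets. Each point is a gene that passed the background line and each bar the group's median; all points of the 9 members lie within 0.5 of 0, while the erythroid bar of replicate 1 lies at -1.31.

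Within the group, the members did not follow 1 order of arrays. Replicate 2 was the lowest array for 4 members (Lyz2, Csf2rb, Fcgr3 and Fcer1g) and the highest for none. Replicate 3 was the lowest for Fcgr1, Fcgr2b and Cd14 and the highest for Fcgr3, Fcer1g and Marco. The values of Siglec1 lay too close together to be ordered. For 2 members the spread was wide enough to look for genes of like pattern, taken as the root mean square difference over the 4 arrays between deviations from each gene's mean. Among 1896 other genes above background with an SD of at least 0.2, those nearest to Csf3r were Tstd3 (0.016), Entpd3 (0.017) and Snhg16 (0.025), and 92 lay within 0.1. Those nearest to Fcgr1 were Cped1 (0.027), Myof (0.035) and Pax8 (0.038), and 35 lay within 0.1. With 4 arrays such likeness is a description of these arrays.

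**Figure D4:**
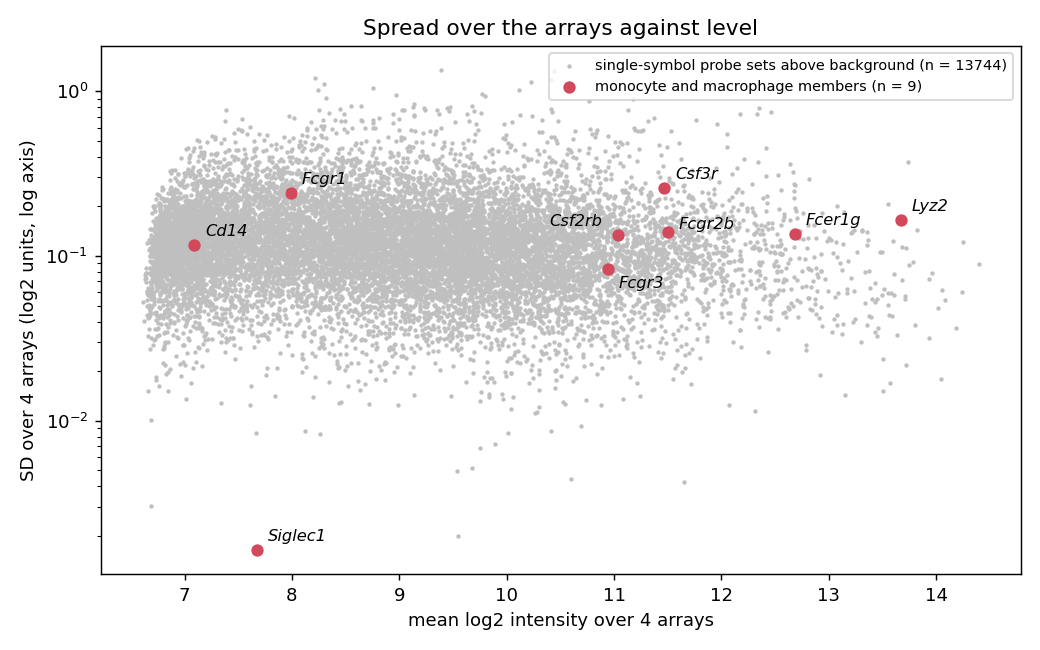
SD over the 4 arrays in log2 units (vertical axis, log scale) against the mean log2 intensity (horizontal axis) for 13744 single-symbol probe sets above background (grey) and the 9 members above background (red). Csf3r (SD 0.26) and Fcgr1 (0.24) have the widest spread among the members, and Siglec1 (0.0016) lies below all other points.

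Transcription factors listed for monocytes and macrophages were detected beside the receptors, and which cells their RNA came from was not tested. Of 7 with a probe set, 6 were above background, including Spi1, which encodes PU.1, at 12.02 ± 0.10 and Cebpa, a driver of myeloid differentiation, at 9.24 ± 0.15 (SD, n = 4 each). Spic, a factor of red pulp macrophages, was not above the line on any array.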

How the data were processed

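The authors deposited log2 intensities of Affymetrix Mouse Gene 1.0 ST probe sets, which they had background-corrected and normalized by RMA. Not given in the sources used here are the arrays normalized together, the threshold for removing low-expression probe sets and a genome build. Columns were matched to samples by name (0 left without a sample), and 34760 probe sets were kept. Of these, 21640 have 1 gene symbol in the platform annotation, 1321 several and 11799 none listed; 21553 of the single-symbol probe sets matched the reference gene table by identifier, with 0 symbols changed. A list gene with several probe sets was given by the one with the highest mean. No protein sequences were used.

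The silent receptor genes that set the background line passed it themselves in 45 of 1246 cases. limma tested value minus line, one-sided, with Benjamini-Hochberg adjustment over all probe sets, and was tested on simulated data. All members were named. From each of 18 other lists up to 4 genes in list order were named, plus genes of the same receptor complex or family. From the mast cell and basophil list and the T and NK cell list every gene with a probe set was named, several of them, with Tpsab1, out of this order and after their values were seen. Members and lists were chosen with earlier results of these data known. Xist, Ltf, Il5, Il34, Tyrobp, Spic, Rag2, Mcpt8, Hemgn and Rhd were named after their values were seen. Alternatives were other background lines, 3 of 4 arrays, the limma test, quantile normalization, median centring, cyclic loess, the mean of a gene's probe sets, thresholds of 0.3 and 1.0, no background filter, the range, and leaving out each array. The number of arrays limits the precision. The SEs and p-values of limma are moderated, with the variance of each probe set drawn toward a value pooled over all probe sets. They reflect that pooled spread as well as the spread between these samples, which may be technical. For a probe set of very low SD, such as Siglec1, they rest largely on the pooled value. Figures were drawn with matplotlib 3.10.9. Statistics used limma 3.58.1 in R 4.3.3, and tables pandas 2.3.3 and numpy 2.4.6 in Python 3.11.15.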

Additional observations from a re-analysis of the deposited data

Results flagged for a closer look

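No member had 1 array far from the others by Dixon's ratio. Of the 146 genes of the members and lists with a probe set, 14 did. By chance 1 in 20 would, which makes 7.3. Genes of 1 list can move together, so the 14 are not independent and no excess over 7.3 is read from them. Of the 14, 8 had replicate 1 as the array that stood apart, 3 replicate 2, 1 replicate 3 and 2 replicate 4. Among the 8 were the erythroid markers Alas2, Slc4a1, Hemgn and Rhd, each lower on the array of replicate 1. Of the other genes considered for the text, the following stood apart, together with Xist, which is on no list. Xist, Ltf and Mcpt8 were chosen after their values were seen. Xist was 5.48 on the array of replicate 3, against a mean of 13.09 on the others. Irf8, a transcription factor of monocytes and B cells, was 12.51 on the array of replicate 1, against 12.28. Kit was 10.46 on that array, against 10.81. Prtn3, a granule protease, was 13.22 on the array of replicate 4, against 13.03. Ltf, a secondary granule protein, was 9.50 on the array of replicate 2, against 10.81. Mcpt8, a mast cell and basophil marker, was 9.15 on that array, against 9.30.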

How the results depend on the processing

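No paired analysis was possible because the arrays form a single group. The count of 9 members above background was 8 to 10 under all alternatives run. Cd14 had a negative mean margin with the 99th percentile as the line (-0.12) and with the median of each array in its place (-0.24). The count of members past the threshold on an array was 2 with a threshold of 0.3 and 0 under every other alternative run. The median SD of 0.14 ranged over 0.091 to 0.143 with single replicates left out, lowest without replicate 3, and the median range was 0.330, which is another measure by construction. The median shifts of the members moved by less than their median SD under all alternatives run; leaving out replicates gave -0.159 to -0.087 for replicate 2 (lowest in size without replicate 4) and 0.034 to 0.087 for replicate 4, against 0.018 with all arrays. The small shifts of replicate 1 (-0.069 to 0.063) and replicate 3 (-0.035 to 0.019) changed sign. Each member has 1 probe set, so the mean over probe sets changed no member. Members near the line are the least certain.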

Other observations

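Markers of other marrow cells that share single members with monocytes were read beside them. Of 8 mast cell and basophil markers 5 were above background, near the 63.5% share of all probe sets with 1 symbol. Cpa3, a mast cell protease, had log2 values of 8.61 to 9.34. Mcpt8, Gata2, Hdc and Prss34 were the others above background, at 9.26 ± 0.07, 7.88 ± 0.19, 10.5 ± 0.16 and 8.46 ± 0.66 (SD, n = 4 each). Tpsab1, another marker on that list, was not above the line on any array. Fcer1a and Ms4a2 were above the line on 3 arrays each. Of 9 T and NK cell markers 7 were above background, beside the same share. Cd3d, a chain of the T-cell receptor complex, was not above the line on any array, while Cd3e, another chain, was at 7.48 ± 0.19 (SD, n = 4). Nkg7, Ncr1 and Klrb1c were at 12.86 ± 0.15, 8.76 ± 0.43 and 7.52 ± 0.58 (SD, n = 4 each). Cd4, Cd8a and Prf1 passed as well, and Gzma was above the line on 2 arrays. The azurophil granule genes Mpo, Elane, Prtn3 and Ctsg had SDs of 0.14, 0.17, 0.098 and 0.11 over the arrays, and the 13 granulocyte markers had SDs of 0.098 to 0.66 with a median of 0.31.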
